A study of Mus musculus with 272 samples.

Results

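The 6 genes described here, known as markers of the mouse 2-cell embryo, were followed from the oocyte to the blastocyst. They are Zscan4c, Zscan4d, Zfp352, Usp17la, Tdpoz1 and Tdpoz4. They were taken by name, as 6 of the 15854 gene symbols in the deposited table of CPM values. CPM is the number of reads of a gene per 1000000 reads of its library, with no scaling to the length of the gene. Because Zscan4, Usp17l and Tdpoz genes lie in families of similar copies, the sums of all 8 Zscan4 rows, all 4 Usp17l rows and all 9 Tdpoz rows were followed beside the single genes.

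The study collected mouse oocytes at the germinal vesicle (GV) and metaphase II (MII) stages, and zygotes, 2-cell, 4-cell and 8-cell embryos, morulae and blastocysts. For each of the 8 stages, whole transcriptomes were sequenced from 4 pools of 20 oocytes or embryos. For each stage, lysates of about 100 oocytes or embryos were also spun through 3 sucrose gradients, lettered A to C, and each gradient was sequenced as 10 separate fractions. Polyadenylated RNA was amplified with a Smart-seq2 kit in all 272 libraries. No drug, allele or genetic change separates the groups, which differ by stage, and the lysis buffer of every gradient held cycloheximide, which holds ribosomes on their mRNA. Strain, age and genotype are not given in the sources used here, and nothing states that pools or gradients of a stage came from separate collections, so p-values measure a spread between samples that may be technical.

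In such a gradient, mRNA carried by many ribosomes sediments deepest. Fractions 6 to 10 are called heavy here and fractions 1 to 5 light, by their numbers, because the labels do not name the end from which the fractions were numbered. Each fraction library was scaled to its own total, so a CPM value in a fraction is a share of that fraction's RNA and not a number of molecules.

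As background, the mouse embryo first transcribes its own genome strongly at the 2-cell stage, while maternal mRNA is being removed. A set of genes is switched on in that window and off again soon after, and the same genes reappear in rare 2-cell-like cells of embryonic stem cell cultures. Zscan4 proteins carry a SCAN domain and zinc fingers and act in telomere maintenance and genome stability. Zfp352 is another zinc finger protein. Usp17l proteins are deubiquitinating enzymes. Tdpoz proteins join a TRAF domain to a POZ (BTB) domain, the arrangement found in Spop, a substrate adaptor of cullin 3 ubiquitin ligases.

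Transcriptome libraries held 11818039 to 25232077 reads and fraction libraries 10470 to 44032541 reads. The 2-cell fractions held 396547 to 18401705 reads, with fraction 1 lowest in each gradient (at most 749152 reads). Oocyte marker genes (6 of 6 in the table, among them Gdf9, Bmp15 and Zp3) summed to 14020 to 15830 CPM in GV oocyte transcriptomes and to 46.4 to 68.8 CPM in 4-cell embryos. Markers of the blastocyst lineages (7 of 7, among them Cdx2, Krt8 and Nanog) summed to 2798 to 3878 CPM in blastocysts and to 96.6 to 109 CPM in 2-cell embryos. Granulosa and cumulus cell markers (4 of 8 in the table) summed to 48.1 to 60.0 CPM in zygotes and 11 to 18.7 CPM in 2-cell embryos, with Inha at 0 in both. In 4-cell embryos they summed to 16.9 to 32.7 CPM. Single gradient fractions ranged more widely, from 0 to 159.8 CPM in 2-cell and from 0 to 1274 CPM in 4-cell embryos. The part of these markers in the changes between stages was not tested.

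The promoters show how the 6 genes relate to each other. RefSeq held a promoter for 6 of 6. Each sequence below spans 300 bases around the RefSeq start of the gene in build GRCm38.p6, which is an earlier build than the GRCm39 the submitters' processing notes name. The first pair shows how alike 2 Zscan4 copies are: Zscan4c lies at chr7:11005495-11005794 (plus strand) and Zscan4d at chr7:11166099-11166398 (minus strand). Capitals mark the TATA box letters TATAAA.
Zscan4c: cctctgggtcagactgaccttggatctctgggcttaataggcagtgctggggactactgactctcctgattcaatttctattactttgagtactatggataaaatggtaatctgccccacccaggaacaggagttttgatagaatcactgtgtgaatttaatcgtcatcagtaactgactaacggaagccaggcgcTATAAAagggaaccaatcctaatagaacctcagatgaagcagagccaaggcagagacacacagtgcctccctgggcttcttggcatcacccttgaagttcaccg
Zscan4d: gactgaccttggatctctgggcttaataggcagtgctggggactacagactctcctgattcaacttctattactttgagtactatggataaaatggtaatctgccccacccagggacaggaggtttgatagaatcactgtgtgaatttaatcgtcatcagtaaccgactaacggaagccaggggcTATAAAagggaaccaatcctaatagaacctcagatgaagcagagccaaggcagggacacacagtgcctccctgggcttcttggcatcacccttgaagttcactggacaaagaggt
These promoters were 90.4% identical over their alignment, with 281 identical bases, 8 mismatches and 22 gaps. The TATAAA run began at position -54 of Zscan4c and -65 of Zscan4d, counted from the annotated start. It was found on neither strand of the other 4 promoters, and 13.6% of all 32851 promoters of this length held it. The longest annotated transcripts of Zscan4c and Zscan4d were 97.1% identical, and 61% of the 150-base windows of Zscan4c, against 13% of those of Zscan4d, also occurred in another gene. A read from such a window cannot be given to 1 copy, so the values of single Zscan4 rows are uncertain. If such reads were dropped in counting, the family sum lacks them too, and how they were counted was not tested.

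Zfp352 lies at chr4:90218570-90218869 (plus strand) and its promoter is shown for a repeated stretch. Capitals mark TAATCC, the core letters read by bicoid-type homeodomain proteins such as the Obox factors.
Zfp352: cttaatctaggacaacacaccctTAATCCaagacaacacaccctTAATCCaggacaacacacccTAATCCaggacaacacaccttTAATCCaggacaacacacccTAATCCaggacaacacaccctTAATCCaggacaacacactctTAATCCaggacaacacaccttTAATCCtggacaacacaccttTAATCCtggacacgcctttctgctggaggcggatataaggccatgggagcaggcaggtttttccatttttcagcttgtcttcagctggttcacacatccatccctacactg
TAATCC occurred 9 times on the strand shown, from position -227 to position -61, at nearly even spacing. The letters were present at least once in 7.06% of all promoters of this length. No window of 150 bases in the Zfp352 transcripts occurred in another gene.

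Tdpoz1 and Tdpoz4 are shown because they took different courses after the 2-cell stage. Tdpoz1 lies at chr3:93676234-93676533 (minus strand) and Tdpoz4 at chr3:93796148-93796447 (plus strand).
Tdpoz1: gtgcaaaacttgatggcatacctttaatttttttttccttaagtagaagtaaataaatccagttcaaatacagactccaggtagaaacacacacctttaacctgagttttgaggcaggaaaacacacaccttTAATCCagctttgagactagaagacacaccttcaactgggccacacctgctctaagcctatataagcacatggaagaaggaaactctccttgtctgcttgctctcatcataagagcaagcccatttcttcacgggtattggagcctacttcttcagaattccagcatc
Tdpoz4: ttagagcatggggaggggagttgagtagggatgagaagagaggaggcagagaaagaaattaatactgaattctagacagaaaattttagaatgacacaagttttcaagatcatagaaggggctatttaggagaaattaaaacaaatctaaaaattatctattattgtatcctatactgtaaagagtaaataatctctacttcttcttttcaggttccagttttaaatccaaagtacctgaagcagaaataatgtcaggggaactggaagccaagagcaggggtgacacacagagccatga
Their promoters were 44.9% identical, beside 45.6% and 48.5% for pairs from different families (Usp17la with Zscan4c, and Zfp352 with Zscan4c). The annotated start of Tdpoz4 falls on the letters atg of a possible start codon. Its window may therefore not hold the promoter, and its identity and motif results may compare unlike regions, which was not tested. Tdpoz1 held TAATCC once, at -118, and Tdpoz4 held none of the motifs searched. Usp17la, at chr7:104856766-104857065 (plus strand), also held none. The core of the Dux site, GATTNAATC, was searched on both strands, occurred in 0.268% of all promoters and was found in none of the 6. No match of one motif overlapped a match of another, and a match of letters is a description of the sequence, not a bound site.

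In the transcriptomes, 5 of the 6 genes were highest in 2-cell embryos, and Tdpoz4 was about level from the 2-cell to the 8-cell stage. Zscan4d was the most abundant. Its 4 libraries at the 2-cell stage held 1059, 1187, 1571 and 1075 CPM, against 10.8, 19.4, 7.77 and 8.61 CPM in zygotes and 8.20, 3.70, 1.5 and 3.14 CPM in 4-cell embryos. No library of the neighbouring stages came near the 2-cell values. Zscan4c followed it at 338, 332, 410 and 334 CPM in 2-cell embryos, with means of 2.33 ± 1.35 CPM in zygotes and 1.01 ± 0.57 CPM in 4-cell embryos (SD, n = 4 in each group of transcriptomes).

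Zfp352 held 433, 455, 552 and 428 CPM in the 4 2-cell libraries. It was at 0 in 3 of 4 zygote libraries and at 0.467 CPM in the fourth, and averaged 4.34 ± 2.32 CPM in 4-cell embryos. Its 2-cell values stood apart from those of every other stage. Usp17la held 46.7, 51.4, 73.6 and 39.5 CPM at the 2-cell stage. It had no read in any GV or MII oocyte library, at most 0.117 CPM in zygotes and at most 1.58 CPM in 4-cell embryos.

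Tdpoz1 held 23.4, 20.3, 33.1 and 28.1 CPM in 2-cell embryos, after at most 0.409 CPM in zygotes, and averaged 1.71 ± 0.78 CPM in 4-cell embryos. Its relative Tdpoz4 went from no read in the 4 zygote libraries, where 3 reads would have been 0.142 to 0.175 CPM, to 26.4, 27.7, 32.2 and 40.9 CPM. Set against 3 reads over the zygote group, Tdpoz4 was at least 811-fold higher in 2-cell embryos. Its next levels overlapped these: 4-cell embryos held 26.6, 46.9, 23.5 and 39.7 CPM and 8-cell embryos 22.4, 26.9, 22 and 39.4 CPM. The ranges of these 3 stages overlapped for Tdpoz4, while for the other 5 genes the 2-cell and 4-cell ranges lay far apart.

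**Figure D1:**
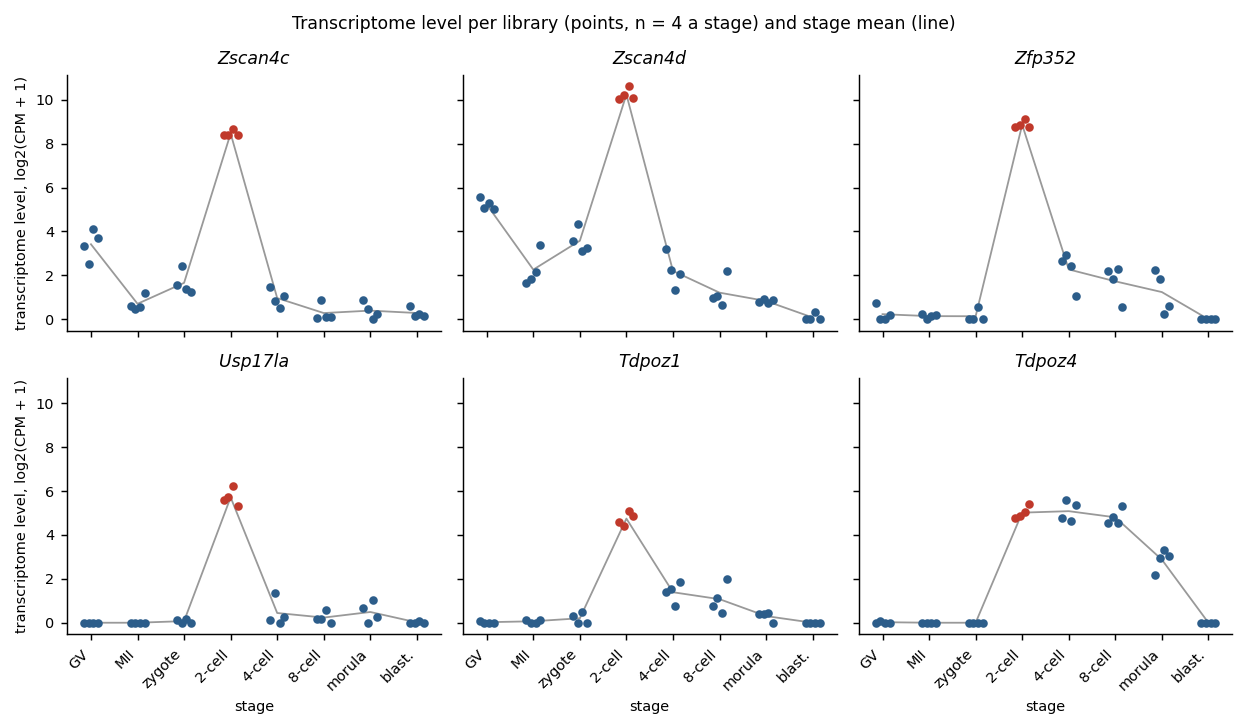
Transcriptome level of each gene, as log2(CPM + 1) on the vertical axis, at the 8 stages on the horizontal axis. Points are single libraries (4 a stage, 2-cell in red) and the line joins stage means; Tdpoz4 alone of the 6 panels keeps its 2-cell level in 4-cell and 8-cell embryos.

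Between the zygote and the 2-cell embryo, all 6 genes rose (called at a Benjamini-Hochberg adjusted p under 0.05 from limma over all genes and a change of at least 1 on the log2(CPM + 1) scale, on which changes of low genes are understated). Of all 14642 genes tested, 25.2% were called higher. Zfp352 rose by 8.72 ± 0.36 (SE; adjusted p = 2.69e-21), Zscan4c by 6.81 ± 0.28 (adjusted p = 4.16e-21) and Zscan4d by 6.66 ± 0.33 (adjusted p = 1.01e-18). The rises of Usp17la, Tdpoz4 and Tdpoz1 were 5.64 ± 0.23, 5.01 ± 0.22 and 4.54 ± 0.23. The median change of the 6 was 6.15, beside 0.37 over all genes. The 6 were chosen as 2-cell markers, with earlier results of these data known. A rise here and a later fall were therefore favoured by the choice, and the comparison with all genes is a description. Quantile scaling turned the split of all calls from 3684 higher and 1275 lower to 2189 higher and 2529 lower, and the 6 genes stayed called higher.

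Between the 2-cell and the 4-cell embryo, 5 of the 6 genes fell, where 32.9% of all genes were called lower. Zscan4d fell by 8.04 ± 0.33 on the log2 scale (adjusted p = 8.15e-22), Zscan4c fell by 7.50 ± 0.28, Zfp352 fell by 6.59 ± 0.36, Usp17la fell by 5.27 ± 0.23 and Tdpoz1 fell by 3.36 ± 0.23 (adjusted p = 1.41e-15). Tdpoz4 differed by 0.07 ± 0.22 (adjusted p = 0.785), and the sign of that small difference turned with the tool and with the libraries kept. Each of the alternatives run for these comparisons gave 6 rises and 5 falls. In bulk libraries such as these, fewer cells with a transcript and less of it per cell cannot be told apart.

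Compared per kilobase of the longest annotated transcript, the order in 2-cell transcriptomes was Zscan4d (538 ± 105 CPM per kb), Zfp352 (205 ± 25.4), Zscan4c (155 ± 16.5), Tdpoz4 (28.6 ± 5.88), Usp17la (19.9 ± 5.54) and Tdpoz1 (11.3 ± 2.40). By plain CPM, Zscan4d ranked 86 and Zfp352 289 of 15771 genes in the 2-cell mean, while Tdpoz1 ranked 4509. The order per kilobase depends on the annotated lengths: Tdpoz4 (1.113 kb) stood below Usp17la (2.656 kb) by plain CPM. Neither order corrects for windows shared with other genes.

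Before fertilization the Zscan4 genes were not silent. Zscan4d held 46.1, 32.2, 38.1 and 31.3 CPM in GV oocytes and 2.15, 2.56, 3.47 and 9.56 CPM in MII oocytes, with no overlap between the stages. Zscan4d fell by 2.97 ± 0.33 on the log2 scale from GV to MII (adjusted p = 1.5e-09) and Zscan4c fell by 2.71 ± 0.28 (adjusted p = 2.4e-10), where 25.3% of all genes were called lower. The other 4 genes averaged under 0.21 CPM at both stages. From MII to zygote Zscan4d rose by 1.32 ± 0.33 (adjusted p = 0.00265), where 5.79% of all genes were called higher, although its MII and zygote ranges overlapped. Zscan4c differed by 0.95 ± 0.28 (adjusted p = 0.00962), short of the size asked for. As polyadenylated RNA was amplified, these are changes in polyadenylated RNA, and the part of changes in tail length was not tested.

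After the 4-cell stage limma on log2(CPM + 1) called Tdpoz4 and Zfp352 between consecutive stages of the transcriptome, and other settings called more of the 6: with pseudocount 0.1, edgeR or DESeq2, 2 were called lower in morulae than in 8-cell embryos, and 5 lower in blastocysts than in morulae. Between 4-cell and 8-cell embryos none of the 6 was called by limma (2.6% of all genes were, in either direction), and 2 had an unadjusted p under 0.05: Zscan4d (-0.99 ± 0.33, adjusted p = 0.0545) and Zscan4c (-0.68 ± 0.28, adjusted p = 0.118). Tdpoz4 held 3.54, 6.66, 9.01 and 7.30 CPM in morulae, below every 8-cell library. It fell by 1.93 ± 0.22 from 8-cell to morula (adjusted p = 4.93e-08; 3.7% of all genes were called lower). From morula to blastocyst Tdpoz4 fell by 2.87 ± 0.22 (adjusted p = 7.57e-13) and Zfp352 fell by 1.24 ± 0.36 (adjusted p = 0.00387), where 7.97% of all genes were called lower. No blastocyst library held a read of either gene, so Tdpoz4 was at least 180-fold and Zfp352 at least 47.8-fold higher in morulae, against 3 reads over the group. The Zfp352 fall lost its call without morula library A (3.75 CPM; -0.90, adjusted p = 0.035) and with pseudocount 5 (-0.40, adjusted p = 0.036). With only morulae and blastocysts in the fit, with or without the replicate letter as a block, Tdpoz4 was the 1 gene of the 6 that passed the filter, and it was called. It passed through its morula values, having no read in blastocysts, so only a fall could be called there.

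The ranks of the stages differed between genes. For Zscan4c and Zscan4d the 2-cell stage was followed by GV oocytes and then zygotes, with no overlap between 2-cell and GV or between GV and zygote libraries. For Zfp352, Usp17la and Tdpoz1 the 4-cell stage came second, and from there on neighbouring stages overlapped. For Tdpoz4 the 4-cell mean (34.2 ± 11 CPM) stood first, the 2-cell mean (31.8 ± 6.54) second and the 8-cell mean (27.7 ± 8.14) after these, and these do not differ beyond their spread.

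The family sums gave the same outline with higher levels. The 8 Zscan4 rows together held 79.2 ± 13.5 CPM in GV oocytes, 14 ± 9.11 in MII oocytes, 31.3 ± 14.7 in zygotes, 2901 ± 410 in 2-cell embryos (2530 to 3407) and 8.76 CPM on average in 4-cell embryos. The 4 Usp17l rows held 520 ± 89.2 CPM in 2-cell embryos (432 to 614) and 13 ± 6.43 in 4-cell embryos. The 9 Tdpoz rows held 159 ± 34.2 CPM at the 2-cell stage, 82.0 ± 16.0 at the 4-cell stage, 68.0 ± 15.3 at the 8-cell stage and 23.7 ± 6.44 in morulae. All 8 Zscan4, 4 Usp17l and 9 Tdpoz rows were called higher in 2-cell embryos than in zygotes (25.2% of all genes). Rows of a family are similar copies and not separate tests. Zscan4 rows shared from 12.6% (Zscan4-ps1) to 86.2% (Zscan4f) of their windows with other genes. In 4-cell embryos all 8 Zscan4 and all 4 Usp17l rows were called lower again, against 6 of 9 Tdpoz rows (32.9% of all genes). The 3 exceptions were Tdpoz4, Tdpoz6 (-0.22) and Tdpoz2 (0.65, adjusted p = 0.0211), and Tdpoz2 later fell by 2.995 from morula to blastocyst.

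The make-up of each sum changed with stage. Zscan4-ps1, named as a pseudogene, made up 28.7% of the Zscan4 sum in GV oocytes, 54.1% in MII oocytes and 44.2% in zygotes, but 5.67 ± 1.20% in 2-cell embryos. Zscan4-ps3 went the other way, from 0.911 ± 0.34% in GV oocytes to 16.0 ± 3.86% in 2-cell embryos, and Zscan4a from 4.08 ± 1.61% to 13.2 ± 0.70%. Zscan4d kept 47.0 ± 7.06% and 42.0 ± 3.12% of the sum at these stages. The ranges over the 4 libraries did not overlap for Zscan4-ps1, Zscan4-ps3 or Zscan4a and did for Zscan4d. These copies share sequence (12.6% of the windows of Zscan4-ps1, 36.4% of Zscan4-ps3 and 25.1% of Zscan4a), and the part of shared reads in these shifts was not tested.

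Usp17la was a minor part of its family: it held 10.2% of the Usp17l sum in 2-cell embryos, where Usp17lb held 76.4%, and Usp17lb held 94.1% in 4-cell embryos. In the Tdpoz sum, Tdpoz4 went from 20.2% at the 2-cell stage to 41.0% and 40.4% at the 4-cell and 8-cell stages. Tdpoz1 went from 16.5% to 2.02% between the 2-cell and 4-cell stages, and Tdpoz2 from 4.77% through 14.5% to 17.2% at the 8-cell stage. Tdpoz4 shared 6.54% and Tdpoz1 12.4% of their windows with other genes, and Usp17la 1.28%.

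**Figure D2:**
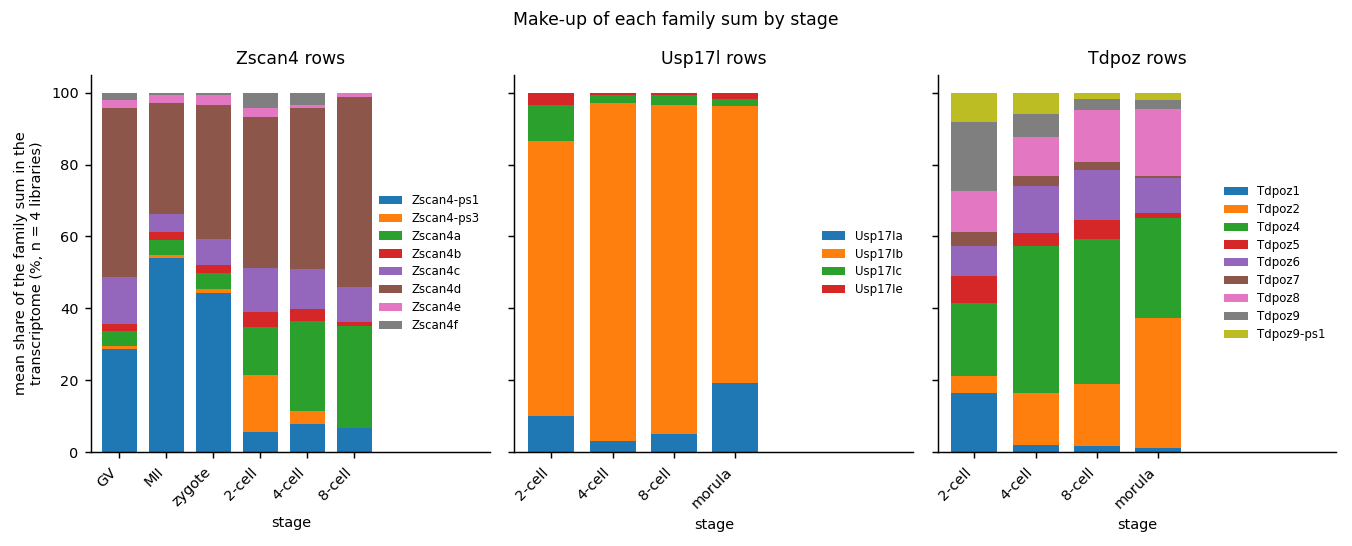
Mean share of each row in the sum of its family (%, vertical axis, n = 4 transcriptome libraries) at the stages on the horizontal axis, for Zscan4, Usp17l and Tdpoz rows. Zscan4-ps1 shrinks from 54.1% in MII oocytes to 5.67% in 2-cell embryos, and Tdpoz4 grows from 20.2% to 41.0% after the 2-cell stage.

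Other genes of the 2-cell programme were read from lists, which were also chosen with earlier results of these data known. Of 36 further 2-cell genes listed, 15 were in the table. Of these, 11 rose between zygote and 2-cell embryo (25.2% of all genes did), with a median change of 3.34 over the 15. The largest rises were B020004C17Rik (10.34 ± 0.30, from 0.103 to 1431 CPM on average), AF067061 (7.70), Ubtfl1 (7.28) and Gm4340 (6.81). Into the 4-cell stage, 13 of the 15 fell and 1 rose, with a median of -4.92 (32.9% of all genes were called lower and 31.8% higher). The largest falls, Rfpl4 (-9.75), AF067061 (-7.21), Tcstv1 (-7.00) and Trim75 (-6.20), included genes that were already high before the 2-cell stage: Rfpl4 averaged 9790 CPM and Trim75 277 CPM in zygotes. Zscan5b, a relative of Zscan4 by its SCAN domain, was the one that rose, by 1.56 ± 0.20; it is named as the exception, after its values were seen.

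Among regulators of the programme, of which 12 of 14 were in the table, 2 rose and 1 fell between zygote and 2-cell embryo, where 25.2% of all genes were called higher and 8.71% lower. The rises were those of Dppa4 (3.99 ± 0.20), a chromatin protein known to act upstream of Dux, and Chaf1b (2.62 ± 0.16), a subunit of the histone chaperone CAF-1, while its partner subunit Chaf1a fell by 2.17 ± 0.23. Into the 4-cell stage 6 of 12 rose (31.8% of all genes were called higher), led by the corepressor Trim28 (3.84), the nuclear receptor Nr5a2 (3.36), Dppa4 (3.13) and its partner Dppa2 (2.63). Among 7 genes of the cullin 3 pathway to which Tdpoz proteins are related, 5 rose between zygote and 2-cell embryo (25.2% of all genes did), led by the BTB genes Spopfm1 (6.34), Spopfm2 (4.85) and Spopfm3 (4.71) and Cul3 itself (2.08). Into the 4-cell stage 4 of 7 fell (32.9% of all genes did), Spopfm3 by 4.51, Spopfm2 by 3.93, Spopfm1 by 3.93 and Spopl by 2.28 on the log2 scale.

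Likeness of pattern was measured as Pearson's r over the 32 transcriptome libraries, in which libraries of a stage are not independent points. The mean of the 6 genes was most like B020031M17Rik (r = 0.977), Obox3 (0.977, 398 ± 42.8 CPM at the 2-cell stage), Pramel20 (0.976), Cd200r3 (0.974) and Gm21761 (0.974). Taken singly, Zscan4c (r = 0.963) and Zscan4d (0.958) were most like Slco4a1, Zfp352 most like Spdye4b (0.973), Usp17la most like Eif1ad19 (0.990), Tdpoz1 most like B020031M17Rik (0.964) and Tdpoz4 most like Prps1l3 (0.978). Among the 6, r ran from 0.971 between the 2 Zscan4 genes down to 0.244 between Tdpoz4 and Zscan4d.

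In the gradients of 2-cell embryos, Zscan4d and Tdpoz4 made up a larger share of the RNA in heavy fractions than in light ones (CPM was scaled within each fraction and does not count molecules). Averaged over fractions 6 to 10, Zscan4d held 782, 522 and 250 CPM in gradients A, B and C, against 28.2, 17.3 and 89.1 CPM over fractions 1 to 5. Tdpoz4 held 358, 44.5 and 163 CPM on the heavy side and 0.138, 0.836 and 5.87 CPM on the light side. For both genes the heavy side exceeded the light side in 3 of 3 gradients and the ranges did not overlap. Zscan4d was highest in fraction 10 of every gradient (1297, 1945 and 943 CPM). Tdpoz4 was highest in fraction 10 of gradient A (1010 CPM) and in fraction 9 of gradients B and C (155 and 333 CPM), but had no read in fraction 10 of gradient B, where 3 reads would have been 0.267 CPM.

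Zfp352 held 153, 44.9 and 167 CPM on the heavy side and 43.9, 36.7 and 29.3 CPM on the light side, also without overlap. Zscan4c held 161, 27.8 and 30.1 CPM on the heavy side against 29.6, 6.07 and 32.7 CPM, with gradient C the reverse of A and B. Usp17la differed between gradients: its heavy means were 2.89, 66.9 and 77.1 CPM and its light means 68.0, 50.4 and 20.1 CPM. Its highest fraction was fraction 4 in gradient A (176 CPM), fraction 8 in B (272 CPM) and fraction 10 in C (299 CPM). Tdpoz1 was scarce, at 8.67, 1.17 and 36.1 CPM on the heavy side and 9.17, 0.521 and 7.62 CPM on the light side.

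**Figure D3:**
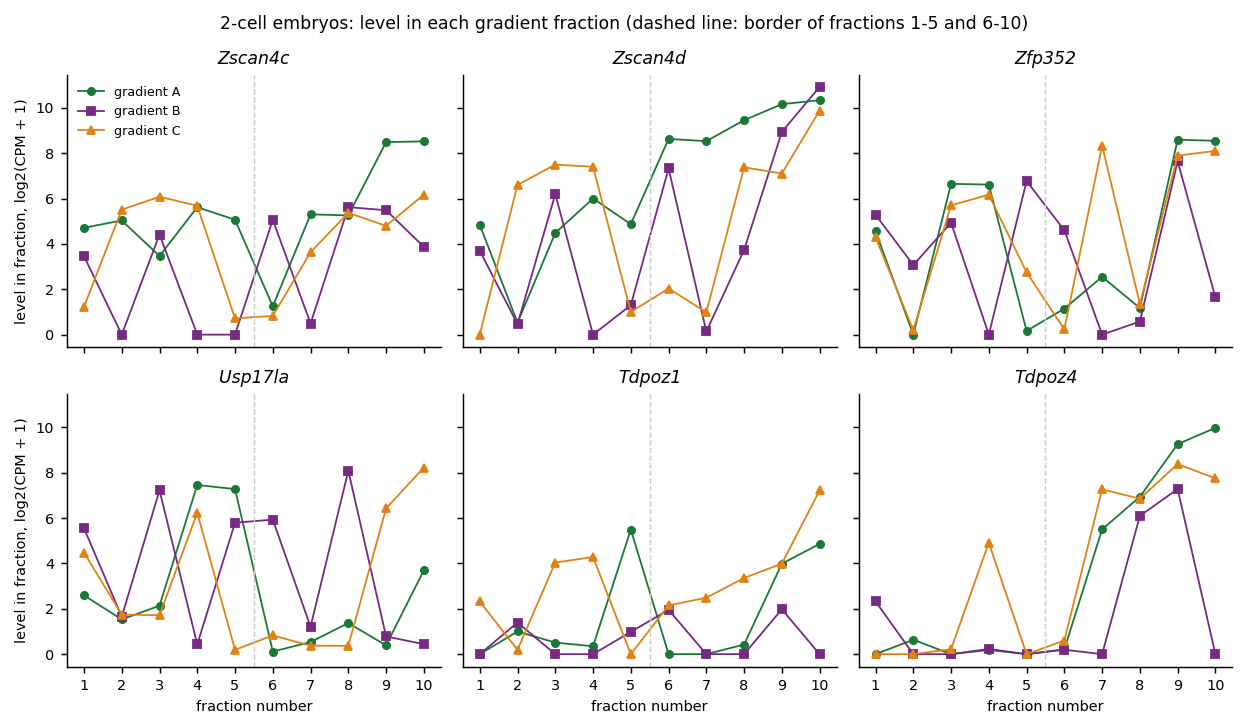
Level of each gene in the 10 fractions (horizontal axis) of the 3 gradients of 2-cell embryos, as log2(CPM + 1) on the vertical axis, with the border between light and heavy fractions dashed. Zscan4d and Tdpoz4 climb toward fractions 9 and 10 in each gradient except for Tdpoz4 in fraction 10 of gradient B, while Usp17la peaks in a different fraction each time.

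Within 2-cell gradients, 2 of the 6 genes were called higher on the heavy side, where 0.809% of the 9889 genes tested were. The difference was 3.69 ± 0.69 for Zscan4d (adjusted p = 0.0391) and 5.84 ± 1.19 for Tdpoz4 (adjusted p = 0.05 after rounding, at the edge of the threshold). Zfp352 (1.51 ± 0.68, adjusted p = 0.233), Zscan4c (1.44 ± 1.02, adjusted p = 0.451), Tdpoz1 (0.85 ± 1.45, adjusted p = 0.782) and Usp17la (-0.62 ± 1.22, adjusted p = 0.815) did not pass. Tdpoz4 passed the filter on low values through its heavy side, as its light means alone did not meet it, which favours a call on the heavy side. Zscan4d met the filter on either side. Both calls depended on the fit and were lost without the filter. With the gradient as a block, which pairs the 2 sides of 1 lysate, the adjusted p became 0.065 for Zscan4d and 0.078 for Tdpoz4. Neither was called by edgeR on recovered reads (3.53, adjusted p = 0.08, and 6.49, adjusted p = 0.12), nor when any 1 of the 3 gradients was left out (3.11 to 4.79 and 4.61 to 6.47).

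The mean fraction number, weighted by CPM, put the same genes in order. It was 8.86 ± 0.51 for Tdpoz4 (n = 3), at percentiles 93.7 to 98.2 of all genes in the 3 gradients, and 8.58 ± 0.72 for Zscan4d (percentiles 87.9 to 98.4). Zfp352 stood at 7.44 ± 0.86, Zscan4c at 7.10 ± 1.23 and Usp17la at 6.24 ± 1.97, beside gradient medians of 5.05, 5.09 and 5.24 over all genes. Tdpoz1 reached 8.43 CPM in total in gradient B, under the 10 CPM set for a position, and stood at 7.21 and 8.55 in the others. The Tdpoz sum stood at 8.52 ± 0.57 and the Zscan4 sum at 8.13 ± 0.81, with 93.96 to 97.7% and 67.9 to 95.3% of their CPM on the heavy side. The Usp17l sum stood at 6.91 ± 0.33. Tdpoz8 had a heavy mean of 60.6 ± 29.2 CPM and a light mean of 3.54 ± 3.15 CPM. Its difference of 4.04 ± 1.20 on the log2 scale was not called by limma (adjusted p = 0.0907).

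Heavy fractions and transcriptomes were scaled separately, so a ratio between them compares shares of RNA. For Tdpoz4 the heavy mean in 2-cell embryos (189 CPM) was 5.93 times its transcriptome mean (31.8 CPM), and the 3 gradients (44.5 to 358 CPM) lay above the 4 transcriptomes (26.4 to 40.9 CPM). Zscan4d (0.423 times), Zfp352 (0.261 times) and Zscan4c (0.206 times) lay below, also with no overlap. Usp17la (0.927 times) and Tdpoz1 (0.584 times) overlapped. For Zscan4d, Zfp352 and Zscan4c the light means (44.85, 36.6 and 22.8 CPM) were lower still, so both sides lay below the transcriptome. The ratio is therefore no measure of the share of a gene on the heavy side.

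**Figure D4:**
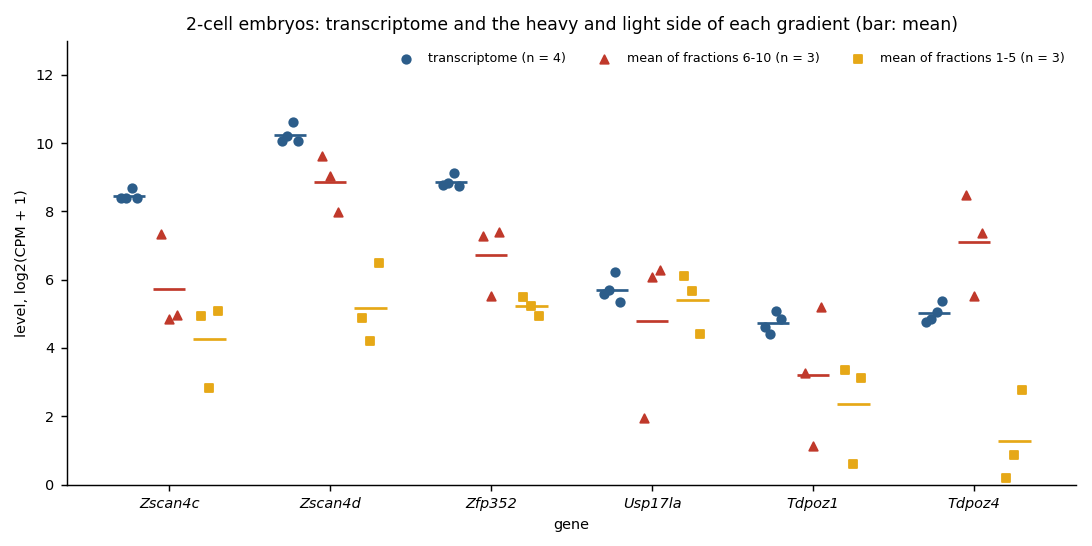
Levels in 2-cell embryos as log2(CPM + 1) for the 4 transcriptomes (circles), the means of fractions 6 to 10 (triangles) and of fractions 1 to 5 (squares) of the 3 gradients, with bars at the group means. Tdpoz4 is the one gene whose 3 heavy values all exceed its 4 transcriptome values, and Zscan4d and Tdpoz4 show the widest gap between heavy and light sides.

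The spread between gradients was wide. Across the 3 gradients, the SD of log2 levels per fraction was 2.67 for Zscan4d, at percentile 93.3 of 164 genes within 2-fold of its level (median 1.38), and 2.73 for Usp17la, at percentile 91.7 of 2960 genes (median 1.82). The other 4 genes lay at percentiles 40.3 to 62.7. Between the 4 transcriptomes the SD was 0.15 to 0.37 for the 6 genes.

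Across stages, the heavy fractions followed the transcriptome in outline. Between zygote and 2-cell embryo, 5 of 6 genes rose in the heavy mean, where 4.68% of 10535 genes were called higher and the median change was -0.82: Zscan4d by 8.19 ± 0.81 (adjusted p = 0.00625), Tdpoz4 by 7.11 ± 1.02, Zfp352 by 6.70 ± 0.92, Zscan4c by 5.70 ± 0.98 and Usp17la by 4.76 ± 1.25 (adjusted p = 0.038). Tdpoz1 differed by 3.2 ± 0.99 (adjusted p = 0.066). By the median of the fractions 3 of the 6 genes passed the filter and 2 were called, as Zfp352 lost its call (4.03, adjusted p = 0.079). The Zscan4c call was lost without zygote gradient A (adjusted p = 0.051). The Usp17la call was lost without any 1 of the zygote gradients and without 2-cell gradient B or C (adjusted p = 0.078 to 0.16). All 8 Zscan4 and all 4 Usp17l rows were called higher, as were 4 of the 5 Tdpoz rows tested. Copies in a family are not separate tests. Rows under 1 CPM in every zygote heavy mean were tested only if all 3 2-cell heavy means reached 1 CPM. The filter thus favours rises in these counts and in that of the 6 genes.

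Into the 4-cell stage, 4 of 6 genes fell in the heavy mean, where 17.5% of genes were called lower. The filter favours falls here, as genes under 1 CPM in every 4-cell heavy mean were tested only through their 2-cell values. Zscan4d fell by 8.67 ± 0.96 (adjusted p = 0.00485), Zfp352 fell by 6.73 ± 1.03, Zscan4c fell by 5.29 ± 1.12 and Usp17la fell by 4.62 ± 1.32 (adjusted p = 0.0386). Tdpoz4 (-4.53 ± 1.43, adjusted p = 0.0518) and Tdpoz1 (-3.06 ± 1.06, adjusted p = 0.0686) missed the threshold. Without 4-cell gradient B or C, and by edgeR, 2 of 6 were called, as Zscan4c (adjusted p = 0.051, 0.056 and 0.16) and Usp17la lost their calls. Usp17la also lost it without 2-cell gradient B or C or 4-cell gradient A (adjusted p = 0.11 to 0.12). Of the 15 further 2-cell genes, 10 rose in the heavy mean of 2-cell embryos and 6 fell in that of 4-cell embryos (4.68% and 17.5% of genes did).

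In 4-cell gradients the CPM of a gene, summed over the separately scaled fractions, came mostly from 1 fraction. Among the 8 combinations of a gene and a gradient with a sum of at least 10 CPM, 8 had at least 80% of it in 1 fraction. The same held for 4 of 6 combinations at the 8-cell stage, 2 of 3 in morulae and 1 of 1 in zygotes, but for 0 of 17 at the 2-cell stage (22.7 to 72.2%) and 0 of 3 in GV oocytes. Usp17la reached 552 CPM in fraction 4 of 4-cell gradient B, from 7074 reads, and had no read in the other 9 fractions. Its 4 transcriptomes at that stage held at most 1.58 CPM. Tdpoz4 held 192 CPM in fraction 2 of gradient A, 132 CPM in fraction 9 of gradient B and 174 CPM in fraction 4 of gradient C. Zfp352 was found at 21.2 CPM in fraction 1 of gradient B, but this rested on 9 reads.

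In 8-cell embryos fraction 10 was the highest for Tdpoz4 in each gradient, at 93.8, 158 and 75.2 CPM, which was 81.8%, 53.1% and 62.3% of its summed CPM. Other fractions also held it, with up to 53.7 CPM in fraction 6 and 44.9 CPM in fraction 9, and its heavy means were 22.9, 57.5 and 15.1 CPM against light means of 0, 2.14 and 9.07 CPM. The difference of 3.16 ± 1.12 did not pass over all genes (adjusted p = 0.154). In morulae its heavy means were 4.81, 0.681 and 2.56 CPM. From 8-cell to morula the heavy mean of Tdpoz4, the one gene of the 6 tested there, fell by 3.11 ± 0.85 (adjusted p = 0.0456; 5.12% of genes were called lower). That call was lost when any 1 of the 6 gradients was left out (adjusted p = 0.061 to 0.17) and by edgeR (0.099). The 8-cell heavy means of Tdpoz4 alone met the filter and its morula ones alone did not. The filter thus favoured a fall, and without it Tdpoz4 was not called.

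**Figure D5:**
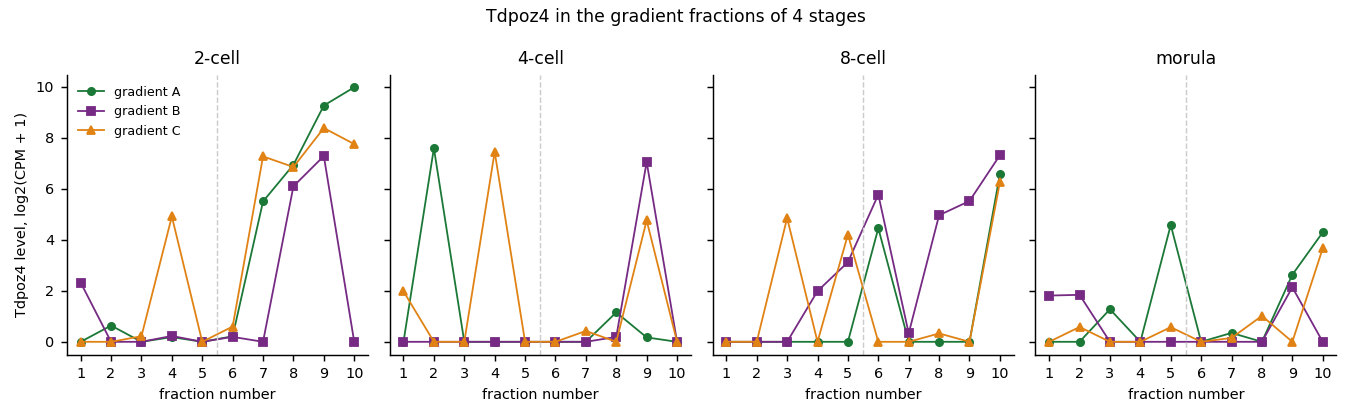
Tdpoz4 as log2(CPM + 1), vertical axis, in fractions 1 to 10, horizontal axis, of gradients A to C at 4 stages, with the border of light and heavy fractions dashed. Its peak lies in fractions 9 and 10 at the 2-cell stage, in fractions 2, 9 and 4 of 4-cell gradients A, B and C, and in fraction 10 of all 3 8-cell gradients.

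In GV oocytes the heavy and light levels of Zscan4d overlapped. Its heavy means were 3.88, 5.04 and 0.844 CPM and its light means 4.09, 2.23 and 1.75 CPM, and the sides differed by 0.09 ± 0.56 (adjusted p = 0.947). The heavy mean was 0.0881 times the transcriptome mean, where at the 2-cell stage it was 0.423 times. Zscan4c had 0 to 0.157 CPM on the heavy side, 0.00914 times its transcriptome mean of 10.6 CPM. The light means in GV oocytes (2.69 CPM for Zscan4d and 0.279 CPM for Zscan4c) also lay far below the transcriptome. These ratios therefore do not measure the share on the heavy side.

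Whether the heavy mean changed by more or less than the transcriptome was tested as an interaction of stage and library type. The fit used 1 spread per gene for both kinds of library, although gradients varied more than transcriptomes. Its standard error was smaller than that of the heavy mean alone for Zfp352 into the 2-cell stage (0.61 against 0.92). The same held for Tdpoz4 into the 4-cell stage (1.27 against 1.43), so these adjusted p-values may be too low. From GV to MII, 1 of the 2 genes tested, Zscan4c, was called higher (2.59 ± 0.47, adjusted p = 0.000564; 17.3% of genes were). Its heavy means, 0.0966 and 0.00536 CPM, lie at the floor of the log2(CPM + 1) scale and could not fall there, while its transcriptome went from 10.6 to 0.663 CPM, so this value follows from the fall of the transcriptome and is no comparison of the 2 kinds of library. Between zygote and 2-cell embryo, Zfp352 was called lower (-2.03 ± 0.61, adjusted p = 0.0263; 23.5% of genes were, and the median over all genes was -1.09); in zygotes both its heavy mean (0.0238 CPM) and its transcriptome mean (0.117 CPM) were near 0. Tdpoz4 had the highest value of the 6, 2.10 ± 0.77, without passing (adjusted p = 0.0618). Into the 4-cell stage, Tdpoz4 was called lower (-4.595 ± 1.27, adjusted p = 0.0263; 7.84% of genes were), as its transcriptome level stayed and its heavy mean went from 189 to 10.7 CPM. The Zfp352 call was lost with pseudocount 0.1 (adjusted p = 0.2), with fractions 7 to 10 as the heavy side (0.068), and without zygote transcriptome A or D or 2-cell transcriptome G (adjusted p = 0.051 to 0.059). The Tdpoz4 call was lost with pseudocount 0.1 (-5.27, adjusted p = 0.05 after rounding), and without any of 5 transcriptome libraries (2-cell E, F or G, 4-cell B or D) or 2-cell gradient A (adjusted p = 0.05 to 0.053), and its light mean of 24.6 ± 21.3 CPM in 4-cell embryos overlapped its heavy mean of 10.7 ± 13.9 CPM.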

How the data were processed

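The 6 genes and all lists were chosen with earlier results of these data known. Transcriptomes (4 per stage) and gradient fractions (3 gradients of 10 fractions per stage) of 8 stages came as 1 table of CPM values, which the authors made before deposit. Per the submitters' processing notes the tools were Trim Galore 0.6.7, FastQC, HISAT2 2.2.1, featureCounts 2.0.1 and edgeR with build GRCm39, and the annotation and the order of steps are not given in the sources used here. In 38 columns the deposited values exceed the CPM total because symbols repeat, and 9 of these (4 blastocyst transcriptomes, 4-cell fractions 7 to 10 of gradient A, 2-cell fraction 5 of gradient C) are recorded as a signal on the authors' CPM scale. Of 159 symbols in 76 groups with identical values 1 each was kept, leaving 15771 symbols. Column letters of the 2-cell transcriptomes (E to H) differ from their labels' letters, so these libraries were used as a group. Whole reads were recovered from the CPM steps in all libraries but 1 (gradient B, fraction 7, 2-cell), with 100% of values within 0.05 reads of a whole number. No 2 libraries were identical.

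Tests used limma 3.58.1 in R 4.3.3 on log2(CPM + 1), over genes that reached 1 CPM in at least the number of samples of the smaller group. Transcriptomes of all stages shared 1 fit, and the other fits held the groups compared. Heavy and light values are means of fractions 6 to 10 and 1 to 5 per gradient. Both sides of a gradient come from 1 lysate, so the fit with the gradient as a block is given beside that result, and the deviations of the same gradient on both sides correlated at 0.00712 to 0.0619, highest with their own letter in 3 of 3. Alternatives used edgeR 4.0.16 and DESeq2 1.42.0 on recovered reads. Genes named are the 6, their families, up to 4 per list by size of change, and those most alike by r. Lengths and shared windows of 150 bases came from GENCODE transcripts, which are not stated to be the authors' annotation. The fits were also run on simulated counts with known changes, drawn independently for each library with no difference shared within a gradient. That run does not show how the fits behave at the spread of these gradients. Depth limits low values: 3 reads equalled 0.142 to 0.175 CPM in zygote transcriptomes, and such limits cover counting error only. Dux and Duxf3 were not analysed here.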

Additional observations from a re-analysis of the deposited data

Results flagged for a closer look

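Among the 2-cell transcriptomes, Zscan4c stood at 409.7 CPM in library G, where the nearest other library held 338 CPM and the lowest 332.3 CPM. Of 38 groups of 4 libraries examined, this 1 had a library so far from the others, and chance alone gives about 1 in 20 independent groups. These groups share libraries and rows, so they are not independent. Library G was also the highest of the 2-cell transcriptomes for Zscan4d (1571 CPM), Zfp352 (552 CPM), Usp17la (73.6 CPM) and Tdpoz1 (33.1 CPM). Tdpoz4 was highest in another library.

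The interaction test of limma used 1 spread per gene for gradients and transcriptomes, so its adjusted p-values may be too low. In 3 cases the change of the heavy mean and that of the transcriptome between the same stages differed in that test on log2(CPM + 1). For Zscan4c from GV to MII oocyte (2.589, adjusted p = 0.000564) the heavy means of 0.0966 and 0.00536 CPM lie at the floor of that scale, so the value follows from the fall of the transcriptome and is no comparison. Zfp352 between zygote and 2-cell embryo (-2.029, adjusted p = 0.0263) lost its call with pseudocount 0.1, with fractions 7 to 10 as the heavy side, and without zygote transcriptome A or D or 2-cell transcriptome G (adjusted p = 0.051 to 0.2). Tdpoz4 between 2-cell and 4-cell embryo (-4.595, adjusted p = 0.0263) lost it with pseudocount 0.1 and without 2-cell transcriptome E, F or G, 4-cell transcriptome B or D, or 2-cell gradient A (adjusted p = 0.05 to 0.053).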

How the results depend on the processing

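The transcriptome counts of 2 falls from GV to MII, 6 rises into the 2-cell stage and 5 falls into the 4-cell stage held under each alternative, including without any 1 library (2 to 2, 6 to 6 and 5 to 5). Between MII and zygote 1 gene was called higher, against 2 with pseudocount 0.1, edgeR or DESeq2, 0 with pseudocount 5, and 1 to 2 without 1 library. From 8-cell to morula 1 gene was called lower, against 2 with pseudocount 0.1, edgeR or DESeq2. From morula to blastocyst 2 were, against 5 with pseudocount 0.1, edgeR or DESeq2, 1 with pseudocount 5, with only the groups compared, or with the replicate letter as a block (in both, 1 gene passed the filter), and 1 to 2 without 1 library. In heavy fractions the 5 rises into the 2-cell stage became 2 by the median of the fractions and 3 to 5 without 1 gradient. The 4 falls into the 4-cell stage became 2 by edgeR or by the median and 2 to 4 without 1 gradient. The 1 fall from 8-cell to morula became 0 with pseudocount 0.1, without the filter, with fractions 7 to 10, with the gradient letter as a block, by edgeR, by the median, and without any 1 gradient (0 to 0). The 2 genes called heavy at the 2-cell stage became 0 without the filter, with the gradient as a block, by edgeR, by the median and without any 1 gradient (0 to 0), 1 without ribosomal RNA rows or with all symbols kept, and 4 with all stages in 1 fit. Changes beyond the transcriptome gave, from GV to MII, 2 in place of 1 with pseudocount 5. Into the 2-cell stage they gave 0 with pseudocount 0.1 or fractions 7 to 10, 2 with pseudocount 5, and 0 to 2 without 1 library. Into the 4-cell stage they gave 0 with pseudocount 0.1 and 0 to 1 without 1 library. With log2 weights the mean fraction was 6.58 for Zscan4d, 5.88 for Zfp352, 6.9 for Tdpoz1 and 7.93 for Tdpoz4. Without 1 gradient it ran from 6.46 to 7.69 for Zscan4c, 8.2 to 8.91 for Zscan4d, 7.12 to 7.93 for Zfp352, 5.14 to 7.05 for Usp17la, 7.21 to 8.55 for Tdpoz1 and 8.57 to 9.01 for Tdpoz4. Signs turned for Tdpoz4 between 2-cell and 4-cell transcriptomes (-0.0522 by edgeR, -0.154 by DESeq2, -0.0988 to 0.223 without 1 library, below 0 without 2-cell library E or 4-cell library B or D) and, between heavy and light sides at the 2-cell stage, for Usp17la (0.32 by edgeR, 1.28 with fractions 1 and 2 as the light side, -1.87 to 1.15 without 1 gradient, with the turn without gradient A) and Zfp352 (-0.568 by the median). The cause of these changes was not tested. Light fractions 2 to 5 and the block on transcriptome letters were chosen after seeing the data.

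Gradient letters of different stages share only a letter: their deviations correlated at -0.0725 to 0.0491, and pairing by letter left 5 of the 6 genes called into the 2-cell stage and 4 into the 4-cell stage. No paired analysis was possible into or out of the 2-cell transcriptomes because their columns carry other letters. Counts over all genes moved by over 1.5 times in 66 values recomputed under other settings and did not in 190. Without 1 library 28 did and 194 did not. Between heavy and light sides at the 2-cell stage, 80 higher and 108 lower became 0 and 0 without the filter or any 1 gradient, and 108 lower became 1783 with all stages in 1 fit. In heavy fractions, 939 higher and 528 lower from 8-cell to morula ran from 17 to 1231 and from 16 to 647, 493 and 1411 into the 2-cell stage from 204 to 741 and 487 to 3628, and 974 and 1472 into the 4-cell stage from 424 to 2262 and 696 to 3233. In transcriptomes, 3684 and 1275 into the 2-cell stage ran from 1981 to 4818 and 936 to 2529. Quantile scaling changed the split of higher and lower calls from 3684 and 1275 to 2189 and 2529 into the 2-cell transcriptome, from 1334 and 3711 to 3234 and 2578 from GV to MII, from 1198 and 542 to 805 and 742 from 8-cell to morula, and from 2750 and 1167 to 1785 and 1731 from morula to blastocyst. In heavy fractions it changed from 493 and 1411 to 653 and 487 into the 2-cell stage and from 939 and 528 to 707 and 647 from 8-cell to morula. For changes beyond the transcriptome it changed from 2178 and 949 to 1832 and 1334 from GV to MII and from 232 and 3104 to 857 and 833 into the 2-cell stage. Depth limits the low values: in fraction 1 of 2-cell gradient A, 3 reads equalled 7.57 CPM.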
